A study of Mus musculus with 24 samples.

Results

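The Notch genes described here are 10: the receptors Notch1 and Notch2, the ligands Dll1, Dll3 and Jag1, the DNA-binding protein Rbpj and the target family members Hes1, Hes5, Hey1 and Hes6. They were chosen by name, as all probe sets whose only platform symbol was one of these names, and each gene's probe sets were combined into 1 log2 level per array. All 10 were measured, among 20848 genes in all. Of these 8 were bright enough to be tested, among 10963 genes tested, and Dll1 and Hes1 were below that limit on every array.

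Expression was measured on 24 single-colour Affymetrix arrays of mouse cerebellar tissue, 1 array per sample. There were 8 cerebellar tumours of hGFAP:GnasCKO mice and 8 of Oligo1:GnasCKO mice, called hGFAP and Oligo1 tumours, all on a mixed C57BL/6 x 129 background and taken at endpoint, with no ages given. Both tumour models delete Gnas conditionally, with different Cre drivers. This gene encodes Gsα, through which receptors stimulate cyclic AMP production. The human GFAP promoter is known to drive expression in neural progenitors and astroglia. The labels do not say which cells either driver reached. The normal samples were wild-type: developing C57BL/6 cerebellum with 1 array at embryonic day 15 (E15), 1 at embryonic day 18 (E18) and 1 on the day of birth (P0), and 5 adult cerebella. The adults were 1 mouse of postnatal day 95 and 1 of day 122 on C57BL/6, and 2 of day 60 and 1 with no day given on the mixed background. No group holds a Cre or floxed allele without a tumour. Strain differs between all tumours and all developing samples, and only the adult group holds both strains. Replicates are recorded as biological, and each developing age has 1 array, so the spread of that group includes age.

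Notch signalling passes between touching cells. A ligand of the Delta-like or Jagged family binds a Notch receptor, γ-secretase then frees the receptor's intracellular part, and this part joins RBPJ on DNA and turns on Hes and Hey genes, which encode repressors of neuronal differentiation. In the cerebellum the pathway is known for keeping granule neuron precursors dividing, through Notch2 and Hes1, and for the development of Bergmann glia, the radial astrocytes of the cortex. Jag1 is one of the ligands known to activate Notch2 in these precursors, and Dll1 and Dll3 are typical of newborn neurons. Hes6 differs from its relatives in that it opposes Hes1 and favours differentiation.

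The promoter windows of Hes5 and Jag1 are shown because these genes stand for both patterns described below. Hes5, a direct RBPJ target, was below its developing level in both tumour groups. Jag1 had the largest difference from adult cerebellum among the tested members in the fit of all arrays. Windows are from RefSeq, build GRCm38.p6, and run from 250 bases before to 50 bases after the start of the gene. Capitals mark TGGGAA, the core of the site that RBPJ binds, on either strand, in Hes5. In Jag1 capitals mark CACGCG, a site that Hes and Hey proteins are known to bind, on either strand. The window of Hes5 is chr4:154960673-154960972 on the plus strand and that of Jag1 is chr2:137116471-137116770 on the minus strand.

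Hes5: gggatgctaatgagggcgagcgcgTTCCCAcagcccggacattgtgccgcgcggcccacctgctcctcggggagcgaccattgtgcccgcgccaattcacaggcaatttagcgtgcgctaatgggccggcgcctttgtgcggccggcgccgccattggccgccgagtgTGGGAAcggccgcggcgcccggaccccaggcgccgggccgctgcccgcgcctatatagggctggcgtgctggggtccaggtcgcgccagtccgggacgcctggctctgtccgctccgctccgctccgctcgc

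Jag1: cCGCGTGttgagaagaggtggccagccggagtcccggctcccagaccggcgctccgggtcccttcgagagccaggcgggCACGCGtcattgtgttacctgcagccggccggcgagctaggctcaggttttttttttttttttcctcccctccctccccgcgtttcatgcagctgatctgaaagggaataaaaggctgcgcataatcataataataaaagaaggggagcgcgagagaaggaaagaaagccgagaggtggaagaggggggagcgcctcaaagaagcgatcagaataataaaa

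Hes5 held 2 TGGGAA matches, starting 226 and 82 bases before the gene start. Jag1 held none, and 2 CACGCG matches. RefSeq windows were found for 8 of the 10 genes, 11 windows in all. TGGGAA was present in 2 of these 8 genes, Hes5 and Rbpj. CACGCG was present in 3 of them, Notch2, Dll1 and Jag1. Among all 32851 mouse windows of this length TGGGAA occurred in 25.6% and CACGCG in 9.27%. CACNAG, the N box of Hes proteins, was present in 4 of the 8 genes, Notch1, Notch2, Dll1 and Hes6, and in 42.5% of all windows. No match overlapped a match of another motif. A match describes the sequence and no binding.

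One array stood apart from its group. In hGFAP tumour 5 the mean level of 7 proliferation markers was 6.49, between those of the adult arrays and of the other tumours, and that of 8 mature granule neuron markers was 11.30, near the 11.50 to 11.81 of adult cerebellum. Its median correlation with the other hGFAP tumours was 0.743, and it had the fewest genes above the brightness limit, 7890, against up to 9344 on the other arrays. Gnas averaged 8.16 ± 0.73 in hGFAP tumours and 7.82 ± 0.54 in Oligo1 tumours (SD, n = 8 each), and 9.79 ± 0.07 in adult cerebellum (n = 5), and every tumour lay below every adult array. The array names of tumours 1 to 4 and 5 to 8 of each model follow different styles, which the labels do not explain, and values within a style are given where they change the call of a tested Notch gene. Levels below are log2 intensities, differences are log2 of the first-named group over the second, and p-values are those of limma across 10963 genes with Benjamini-Hochberg adjustment, called below 0.05. In tissue samples fewer cells of a type and less RNA per cell cannot be told apart.

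**Figure D1:**
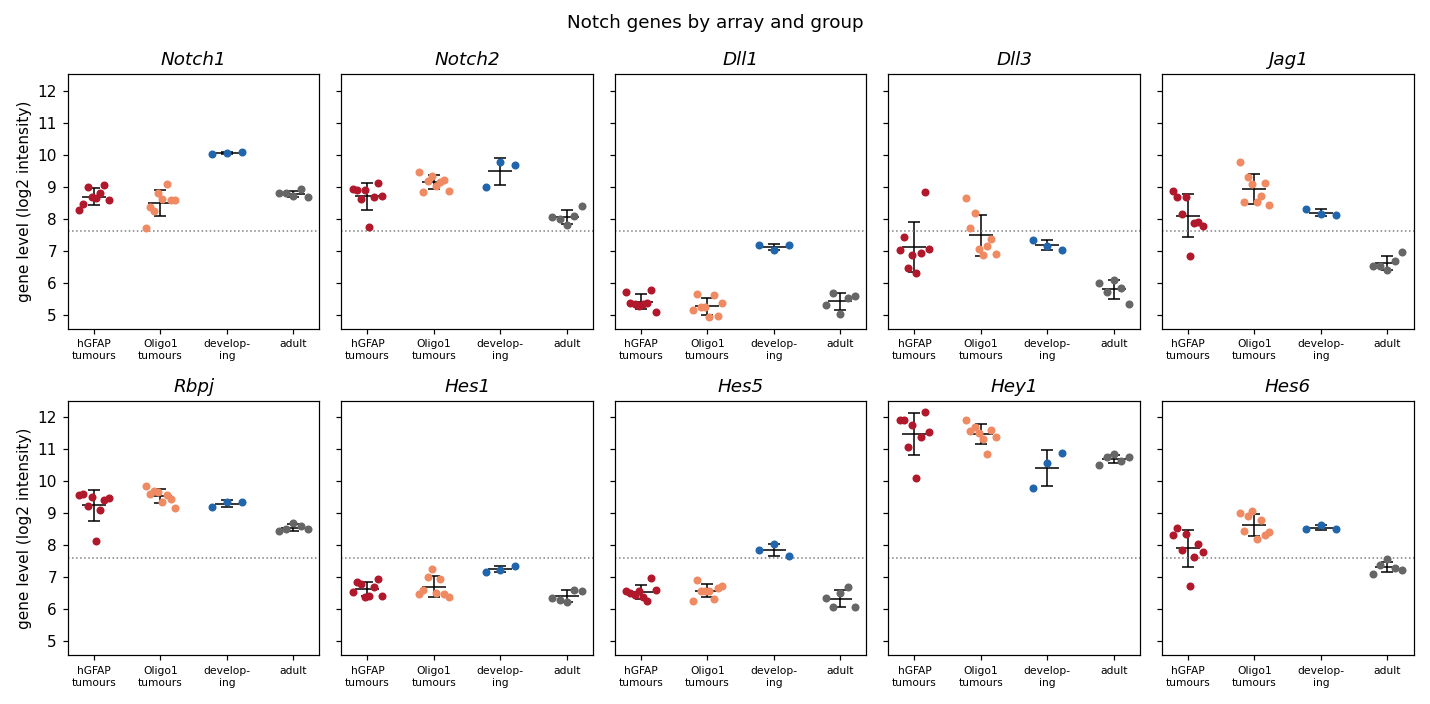
Log2 level (vertical axis) of each of the 10 Notch genes on every array, by group, with points for arrays, horizontal bars for means and whiskers for SD; the dotted line is the brightness limit of 7.61. The developing points run in the order E15, E18 and P0, and for Notch1, Dll1 and Hes5 they lie above every tumour and every adult array.

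Against adult cerebellum 6 of the 8 tested Notch genes were higher and none lower in hGFAP tumours, where 24.2% of all tested genes were higher and 29.9% lower. In Oligo1 tumours the same 6 genes, Notch2, Dll3, Jag1, Rbpj, Hey1 and Hes6, were higher and none lower, where 35.8% of all tested genes were higher and 34.5% lower. Against developing cerebellum 1 gene was higher and 3 lower in hGFAP tumours, where 15% of all tested genes were higher and 13.4% lower. In Oligo1 tumours 1 was higher and 2 were lower than in developing cerebellum, where 27.5% of all were higher and 19.9% lower. The same control arrays serve both tumour groups, so the 2 comparisons with each control are not independent. Jag1, Hes6 and Dll3 passed the brightness limit only through tumour or developing arrays and Hes5 only through the 3 developing arrays, so the counts describe the genes that passed and are not a sample of all Notch genes. The values of Jag1, Hes6 and Dll3 against adult, and of Hes5 and Dll3 against developing cerebellum, likewise describe genes chosen where they are high.

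Of the receptors, Notch1, which in the cerebellum is best known from progenitors and glia, was below its developing level in both kinds of tumour and was not called against adult. Its level was lowest at 8.27, median 8.66 and highest at 9.04 in the 8 hGFAP tumours, and 7.72, 8.59 and 9.09 in the 8 Oligo1 tumours. It was 10.03, 10.06 and 10.10 at E15, E18 and P0, and 8.72, 8.92, 8.68, 8.81 and 8.81 in adult cerebellum. All 16 tumours were below the lowest developing array, and both tumour groups spanned the adult values. Notch1 was 2.60-fold lower in hGFAP tumours than in developing cerebellum (log2 difference -1.38, SE 0.19, adjusted p = 1.15e-05) and 2.95-fold lower in Oligo1 tumours (-1.56, SE 0.19, adjusted p = 1.4e-06). Against adult its difference was -0.10 in hGFAP tumours (95% interval -0.43 to 0.24, adjusted p = 0.629) and -0.28 in Oligo1 tumours (95% interval -0.62 to 0.05, adjusted p = 0.123). The Oligo1 difference from adult was called without Oligo1 tumour 6 (-0.37, adjusted p = 0.0335), with array weights (-0.41, adjusted p = 0.00379) and in tumours 1 to 4 alone (-0.50, adjusted p = 0.0185), and it was -0.07 in tumours 5 to 8 alone (adjusted p = 0.663). Of its 34 tested probe sets 31 were lower in hGFAP tumours than in developing cerebellum and 32 in Oligo1 tumours, where 10.3% of all tested probe sets were lower in the first comparison and 17.3% in the second.

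Notch2, the receptor associated with dividing granule precursors, exceeded its adult level in tumours of both models. The lowest, median and highest levels were 7.73, 8.80 and 9.11 in hGFAP tumours and 8.84, 9.18 and 9.46 in Oligo1 tumours. Developing cerebellum had 9.00, 9.77 and 9.67 at E15, E18 and P0, and adult cerebellum had 7.80, 8.09, 8.39, 8.06 and 7.98. Every Oligo1 tumour and every developing array lay above every adult array, and among hGFAP tumours 7 of 8 did, with tumour 5 below them. Notch2 was 1.55-fold higher in hGFAP tumours than in adult cerebellum (0.64, SE 0.18, adjusted p = 0.00519) and 2.11-fold higher in Oligo1 tumours (1.08, SE 0.18, adjusted p = 1.78e-05). Without hGFAP tumour 5 the hGFAP difference was 0.77 (adjusted p = 4.38e-05), and in tumours 5 to 8 alone it was 0.50 and not called (adjusted p = 0.109). Against developing cerebellum Notch2 was 1.72-fold lower in hGFAP tumours (-0.78, SE 0.21, adjusted p = 0.00794), a call lost without the E18 array (adjusted p = 0.0754), without the P0 array (adjusted p = 0.0515) or with strain as a covariate (adjusted p = 0.116). In Oligo1 tumours the difference was -0.34 (95% interval -0.78 to 0.10, adjusted p = 0.192). Against adult 17 of its 35 tested probe sets were higher in hGFAP tumours, where 19% of all probe sets were, and 33 in Oligo1 tumours, where 28.8% were. None of the 35 was lower in either, whereas of all probe sets 22.6% were lower in hGFAP and 30.8% in Oligo1 tumours.

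Of the ligands, Jag1 had the largest difference from adult cerebellum among the 8 tested Notch genes in both tumour groups. Its lowest, median and highest levels were 6.82, 8.04 and 8.88 in hGFAP tumours and 8.42, 8.90 and 9.76 in Oligo1 tumours. Developing cerebellum had 8.32, 8.14 and 8.11 at E15, E18 and P0. Adult cerebellum had 6.41, 6.67, 6.97, 6.52 and 6.52, all below the brightness limit of 7.61, so that the fold against adult may be understated. Only hGFAP tumour 5 among the 16 tumours reached down into the adult values, and all 8 Oligo1 tumours lay above all 3 developing arrays. Jag1 was 2.78-fold higher in hGFAP tumours than in adult cerebellum (1.47, SE 0.27, adjusted p = 0.000124) and 4.98-fold higher in Oligo1 tumours (2.32, SE 0.27, adjusted p = 2.57e-07). Without hGFAP tumour 5 the hGFAP difference was 1.66. It was 1.98 in hGFAP tumours 1 to 4 and 0.97 in hGFAP tumours 5 to 8, called in both. In hGFAP tumours 5 to 8 Jag1 did not have the largest difference, as Dll3 was at 1.48. Against developing cerebellum Jag1 differed by -0.10 in hGFAP tumours (adjusted p = 0.854) and by 0.75 in Oligo1 tumours (95% interval 0.09 to 1.40, adjusted p = 0.0571), and the second value was called in 11 of the alternatives, which ranged from adjusted p = 0.000172 to 0.479. In Oligo1 tumours 1 to 4 alone it was 0.98 (adjusted p = 0.0019). Against adult, 25 of 26 tested probe sets of Jag1 were higher in each tumour group, with a median of 1.65 in hGFAP and 2.51 in Oligo1 tumours. Of all tested probe sets 19% were higher there in hGFAP and 28.8% in Oligo1 tumours.

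Dll3, a Delta-like protein that lowers Notch activity within the cell that makes it, was higher than in adult tissue in both models, at low levels. The lowest, median and highest levels were 6.31, 6.99 and 8.82 in hGFAP tumours and 6.86, 7.26 and 8.66 in Oligo1 tumours. It had 7.33, 7.14 and 7.03 at E15, E18 and P0, and 6.10, 5.83, 5.35, 6.01 and 5.71 in adult cerebellum. Only hGFAP tumour 7 and Oligo1 tumours 1, 2 and 3 passed 7.61, and all 16 tumours lay above all 5 adult arrays. Dll3 was 2.48-fold higher in hGFAP tumours than in adult (1.31, SE 0.33, adjusted p = 0.00225) and 3.21-fold higher in Oligo1 tumours (1.68, SE 0.33, adjusted p = 0.000115). The difference from developing cerebellum was -0.06 in hGFAP tumours (95% interval -0.87 to 0.76) and 0.31 in Oligo1 tumours (95% interval -0.50 to 1.13), neither called. The Oligo1 value was called in tumours 1 to 4 alone (0.73, adjusted p = 0.0484) and with array weights (0.62, adjusted p = 0.0355). Dll3 was tested only because hGFAP tumour 7 and Oligo1 tumours 1, 2 and 3 passed the limit. Its values in tumours, those of Oligo1 tumours 1 to 4 above all, therefore describe a gene chosen where it is high. Against adult, 5 of its 7 tested probe sets were higher in hGFAP tumours and 6 in Oligo1 tumours. Of all tested probe sets 19% were higher there in hGFAP and 28.8% in Oligo1 tumours.

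Dll1, the ligand of differentiating neural cells, was dim on all 24 arrays and was tested only in the fit of all 20848 genes. The lowest, median and highest levels were 5.08, 5.36 and 5.77 in hGFAP tumours and 4.93, 5.24 and 5.65 in Oligo1 tumours. Developing cerebellum had 7.17, 7.02 and 7.19 at E15, E18 and P0, and adult cerebellum had 5.02, 5.51, 5.58, 5.32 and 5.68. The 3 developing arrays stood above all others, and tumours and adults covered the same span. In that fit Dll1 was 3.30-fold lower in hGFAP tumours than in developing cerebellum (-1.72, SE 0.16, adjusted p = 4.54e-08) and 3.63-fold lower in Oligo1 tumours (-1.86, SE 0.16, adjusted p = 1.03e-08), where 11.2% of all genes were lower in hGFAP and 16.1% in Oligo1 tumours. Against adult it differed by -0.02 in hGFAP tumours and by -0.15 in Oligo1 tumours, neither called. Its 3 tested probe sets disagreed against adult, since 1 was higher in each tumour group and 1 was lower in Oligo1 tumours.

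Rbpj, the DNA-binding partner of all Notch receptors, also exceeded its adult level in both models. Its lowest, median and highest levels were 8.13, 9.44 and 9.60 in hGFAP tumours and 9.15, 9.59 and 9.84 in Oligo1 tumours. It had 9.19, 9.36 and 9.36 at E15, E18 and P0, and 8.70, 8.60, 8.50, 8.45 and 8.52 in adult cerebellum. Again hGFAP tumour 5 was the only tumour not above all adults, and it lay below them. Rbpj was 1.62-fold higher in hGFAP tumours than in adult (0.70, SE 0.18, adjusted p = 0.0022) and 1.98-fold higher in Oligo1 tumours (0.99, SE 0.18, adjusted p = 3.93e-05). The hGFAP difference was 0.86 without tumour 5 (adjusted p = 5.68e-07), and 0.48 in tumours 5 to 8 alone (adjusted p = 0.0898). Against developing cerebellum it was -0.05 in hGFAP tumours (95% interval -0.48 to 0.38) and 0.24 in Oligo1 tumours (95% interval -0.20 to 0.67), neither called. The Oligo1 value was called in tumours 1 to 4 alone (0.39, adjusted p = 0.00378) and with array weights (0.26, adjusted p = 0.0108). Against adult, all 12 tested probe sets of Rbpj were higher in Oligo1 tumours and 8 of 12 in hGFAP tumours. Of all tested probe sets 28.8% were higher there in Oligo1 and 19% in hGFAP tumours.

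**Figure D2:**
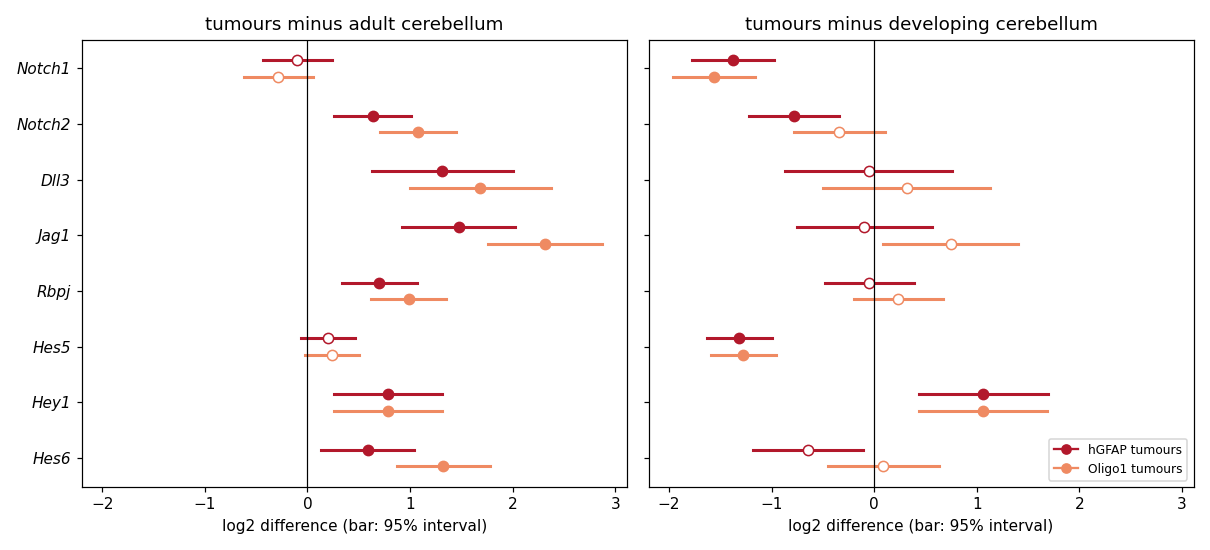
Log2 difference (horizontal axis) of the 8 tested Notch genes in hGFAP and Oligo1 tumours from adult cerebellum, left, and from developing cerebellum, right, with 95% intervals; filled points have an adjusted p below 0.05. Jag1 has the largest difference from adult in each group, 1.47 and 2.32, and Notch1 and Hes5 lie below 0 against developing cerebellum with intervals that do not reach it.

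Of the targets, Hes5, a repressor that RBPJ directly controls in neural progenitors, remained far below its developing level in both tumour groups. The lowest, median and highest levels were 6.25, 6.54 and 6.97 in hGFAP tumours and 6.27, 6.58 and 6.92 in Oligo1 tumours. Developing cerebellum had 7.86, 8.03 and 7.67 at E15, E18 and P0, and adult cerebellum had 6.52, 6.68, 6.08, 6.35 and 6.06. No tumour or adult array reached the lowest developing one. Hes5 was 2.49-fold lower in hGFAP tumours than in developing cerebellum (-1.31, SE 0.15, adjusted p = 8.07e-07) and 2.42-fold lower in Oligo1 tumours (-1.27, SE 0.15, adjusted p = 8.15e-07), and all 3 tested probe sets were lower in each. Of all tested probe sets 10.3% were lower there in hGFAP and 17.3% in Oligo1 tumours. As Hes5 passed the brightness limit only through the 3 developing arrays, where it is high, its values against them are a description. Against adult its difference was 0.20 in hGFAP tumours (95% interval -0.06 to 0.47, adjusted p = 0.18) and 0.24 in Oligo1 tumours (95% interval -0.02 to 0.51, adjusted p = 0.0923). The probe sets disagreed here: 1 was higher by 1.58 in hGFAP tumours (adjusted p = 0.000106) and by 1.89 in Oligo1 tumours (adjusted p = 4.93e-06), while the other two lay between -0.04 and 0.03. With the mean of the probe sets in place of median polish Hes5 was called higher than adult in hGFAP tumours (0.41, adjusted p = 0.0107) and in Oligo1 tumours (0.47, adjusted p = 0.0028).

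Hes1, a target of Notch2 in granule precursors, was below the brightness limit on all 24 arrays. The lowest, median and highest levels were 6.37, 6.62 and 6.95 in hGFAP tumours and 6.39, 6.54 and 7.26 in Oligo1 tumours. It had 7.17, 7.24 and 7.35 at E15, E18 and P0, and 6.22, 6.61, 6.58, 6.37 and 6.29 in adult cerebellum. All hGFAP tumours lay below the developing arrays, whereas Oligo1 tumour 4, at 7.26, reached them. In the fit of all 20848 genes Hes1 was 1.54-fold lower in hGFAP tumours than in developing cerebellum (-0.62, SE 0.16, adjusted p = 0.00728) and 1.46-fold lower in Oligo1 tumours (-0.54, SE 0.16, adjusted p = 0.0125). Against adult it differed by 0.21 in hGFAP tumours (95% interval -0.07 to 0.50, adjusted p = 0.248) and by 0.29 in Oligo1 tumours (95% interval 0.01 to 0.58, adjusted p = 0.0827).

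Hey1, a related repressor, was the tested Notch gene that was higher in tumours than in both normal groups. Its lowest, median and highest levels were 10.11, 11.65 and 12.15 in hGFAP tumours and 10.85, 11.55 and 11.90 in Oligo1 tumours. It had 9.78, 10.58 and 10.89 at E15, E18 and P0, and 10.84, 10.62, 10.76, 10.50 and 10.75 in adult cerebellum. In hGFAP tumours only tumour 5 was within or below the normal values, and in Oligo1 tumours only tumour 6, at 10.85, was below the P0 array. Hey1 was 1.72-fold higher in hGFAP tumours than in adult cerebellum (0.78, SE 0.26, adjusted p = 0.0128) and 1.72-fold higher in Oligo1 tumours (0.78, SE 0.26, adjusted p = 0.00925). Both calls were lost in tumours 5 to 8 alone, where hGFAP tumours differed by 0.60 (adjusted p = 0.158) and Oligo1 tumours by 0.59 (adjusted p = 0.129). Against developing cerebellum it was 2.09-fold higher in hGFAP tumours (1.06, SE 0.30, adjusted p = 0.0106) and 2.08-fold higher in Oligo1 tumours (1.06, SE 0.30, adjusted p = 0.00685). Without the E15 array both values were 0.74 and neither was called (adjusted p = 0.141 for hGFAP tumours, adjusted p = 0.0916 for Oligo1 tumours). With strain as a covariate both were 1.12 and again not called (adjusted p = 0.229 for hGFAP, adjusted p = 0.158 for Oligo1), and in tumours 5 to 8 alone both were 0.87 (adjusted p = 0.114 for hGFAP, adjusted p = 0.0867 for Oligo1). The hGFAP call was also lost in a fit of only these groups (adjusted p = 0.0766). All 5 probe sets of Hey1 were higher in every one of these 4 comparisons. Against adult 19% of all probe sets were higher in hGFAP and 28.8% in Oligo1 tumours. Against developing cerebellum the share of all probe sets that were higher is not given here. Counted over genes in place of probe sets, 15% were higher there in hGFAP and 27.5% in Oligo1 tumours. For Hey1, as for the other members, the probe sets belong to 1 gene on the same arrays, so they do not replicate the gene's calls.

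Hes6, the family member that opposes Hes1, was higher than in adult tissue in both models. The lowest, median and highest levels were 6.72, 7.94 and 8.53 in hGFAP tumours and 8.18, 8.62 and 9.06 in Oligo1 tumours. It had 8.52, 8.63 and 8.50 at E15, E18 and P0, and 7.56, 7.30, 7.24, 7.11 and 7.37 in adult cerebellum, all below 7.61. Every Oligo1 tumour lay above every adult array, and the group spanned the developing values. Among hGFAP tumours 7 of 8 were above all adults, and tumour 5 was below them all. Hes6 was 1.50-fold higher in hGFAP tumours than in adult (0.59, SE 0.22, adjusted p = 0.0277) and 2.50-fold higher in Oligo1 tumours (1.32, SE 0.22, adjusted p = 1.59e-05). The hGFAP call was lost in 9 alternatives, among them leaving out adult array 1 or 5 or hGFAP tumour 1, 2 or 4 (adjusted p = 0.054 to 0.0668), and without tumour 5 the difference was 0.75 (adjusted p = 0.00043). In tumours 5 to 8 alone it was 0.23 (adjusted p = 0.419). Against developing cerebellum it was -0.65 in hGFAP tumours (95% interval -1.18 to -0.11, adjusted p = 0.0664) and 0.09 in Oligo1 tumours (95% interval -0.45 to 0.63, adjusted p = 0.798). The hGFAP value was called in 5 alternatives, among them tumours 5 to 8 alone (adjusted p = 0.00864) and without tumour 2 (-0.74, adjusted p = 0.0334).

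Between the tumour groups 2 of the 8 tested Notch genes differed, Jag1 and Hes6, both lower in hGFAP tumours, where 10.4% of all tested genes were higher and 8.55% lower. Jag1 averaged 8.09 ± 0.67 in hGFAP tumours and 8.93 ± 0.46 in Oligo1 tumours (SD, n = 8 each), a difference of -0.84 (SE 0.23, 1.79-fold lower, limma adjusted p = 0.0252). Hes6 averaged 7.90 ± 0.57 in hGFAP tumours and 8.64 ± 0.34 in Oligo1 tumours, a difference of -0.74 (SE 0.19, 1.66-fold lower, adjusted p = 0.0202). The ranges overlapped for both genes. Without hGFAP tumour 5 the differences were -0.66 for Jag1 (adjusted p = 0.0375) and -0.57 for Hes6 (adjusted p = 0.0224). In a fit of only these 2 groups neither was called (adjusted p = 0.0773 for Jag1 and adjusted p = 0.07 for Hes6). The Jag1 call was also lost without Oligo1 tumour 1 (adjusted p = 0.0597), Oligo1 tumour 3 (adjusted p = 0.0511) or hGFAP tumour 6 (adjusted p = 0.0534). By name style, Jag1 differed by -0.58 in tumours 1 to 4 (adjusted p = 0.0742) and by -1.11 in tumours 5 to 8 (adjusted p = 0.0758), and Hes6 by -0.59 in tumours 1 to 4 (adjusted p = 0.0179) and by -0.88 in tumours 5 to 8 (adjusted p = 0.132). Notch2, at -0.44 (95% interval -0.77 to -0.11, adjusted p = 0.0524), passed in 9 alternatives. Dll3, at -0.37 (adjusted p = 0.339), passed in tumours 1 to 4 alone (-0.95, adjusted p = 0.0332) and with array weights (-0.71, adjusted p = 0.0164). Oligo1 tumours 1, 2 and 3 are among the few arrays that brought Dll3 over the brightness limit, so these values are a description. Hey1 averaged 11.48 ± 0.65 in hGFAP tumours and 11.48 ± 0.31 in Oligo1 tumours, and the 95% interval of the difference was -0.46 to 0.46. Several marker lists moved with this comparison. In hGFAP tumours 7 of 11 markers of Bergmann glia and astrocytes were higher (median difference 0.74), 3 of 8 of mature granule neurons (1.43), 3 of 7 of Purkinje cells (1.05) and 4 of 9 of the oligodendrocyte lineage (0.86), with none lower in these lists. Proliferation markers went the other way, with 1 of 7 lower, none higher and a median of -0.88. Of neural progenitor markers 1 of 5 was lower and none higher (median -0.08). The granule precursor, endothelial and microglia lists held no calls. The mean level of the glial list ranged from 9.89 to 10.66 in hGFAP tumours and from 8.69 to 9.97 in Oligo1 tumours. That of the mature granule neuron list ranged from 7.87 to 11.30 in hGFAP tumours and from 6.71 to 10.06 in Oligo1 tumours. For Purkinje markers it was 7.63 to 10.84 in hGFAP and 6.62 to 9.78 in Oligo1 tumours, and for oligodendrocyte lineage markers 8.36 to 9.52 in hGFAP and 7.23 to 8.66 in Oligo1 tumours. Their part in the result was not tested.

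In normal cerebellum 7 of the 8 tested genes were higher in developing than in adult tissue and none lower, where 20.2% of all tested genes were higher and 25.5% lower. With strain as a covariate 5 were called, and Dll3 (adjusted p = 0.0915) and Rbpj (adjusted p = 0.0842) were not. For all 7 the 3 developing arrays lay above all 5 adults, as they did for 26.1% of all tested genes. Hes5 averaged 7.85 ± 0.18 in developing (SD, n = 3) and 6.34 ± 0.27 in adult cerebellum (n = 5), a difference of 1.52 (SE 0.16, adjusted p = 2.23e-07). It passed the brightness limit only through the 3 developing arrays, where it is high, so this value is a description. Jag1 differed by 1.57 (SE 0.34, adjusted p = 0.000752), Notch2 by 1.42 (SE 0.23, adjusted p = 3.72e-05), Dll3 by 1.37 (SE 0.42, adjusted p = 0.0116), Notch1 by 1.28 (SE 0.21, adjusted p = 3.72e-05), Hes6 by 1.23 (SE 0.28, adjusted p = 0.00109) and Rbpj by 0.75 (SE 0.23, adjusted p = 0.00964). The exception was Hey1, at 10.42 ± 0.57 in developing and 10.69 ± 0.14 in adult cerebellum (-0.28, 95% interval -0.95 to 0.40, adjusted p = 0.515). It was lowest at E15, 9.78, and at P0, 10.89, it was above every adult array. In the fit of all genes Dll1 was higher in developing tissue by 1.71 (SE 0.17, adjusted p = 1.44e-07) and Hes1 by 0.84 (SE 0.18, adjusted p = 0.000754), where 14.6% of all genes were higher.

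Set side by side, the members that are higher in developing than in adult cerebellum took different places in tumours. Jag1, Dll3, Rbpj and Hes6 were above adult in both tumour groups, and neither group was called against developing tissue in the fit of all arrays, although each of the 4 genes was called there in 1 tumour group under some of the alternatives given above. Notch1, Dll1 and Hes5 were below developing tissue in both tumour groups and were not called against adult. Hes1 had the same calls as Notch1, Dll1 and Hes5. Notch2 had the calls of the first set in Oligo1 tumours, and in hGFAP tumours it was above adult and below developing cerebellum. These comparisons share their control arrays, and whether one member's pattern differs from another's was not tested. Jag1, Dll3, Hes6 and Hes5 also passed the brightness limit only through groups where they are high.

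**Figure D3:**
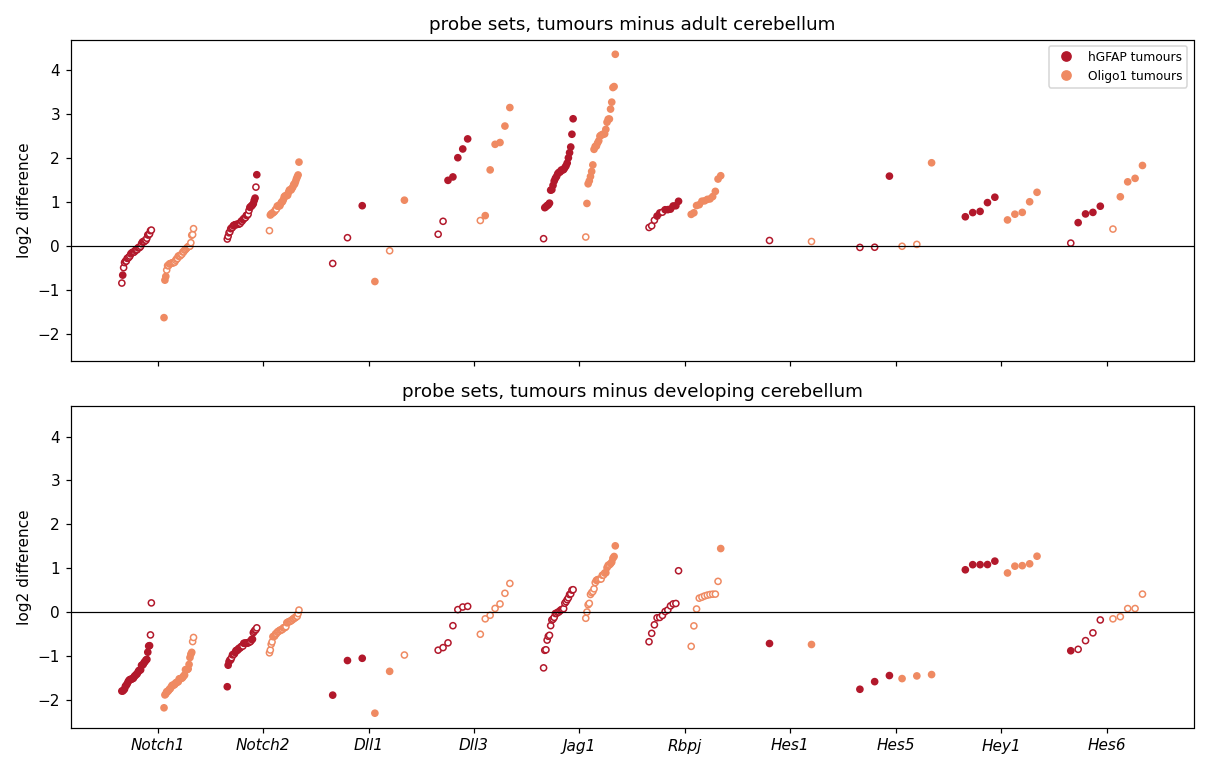
Log2 difference (vertical axis) of each tested probe set of the 10 Notch genes, sorted within gene, for hGFAP and Oligo1 tumours against adult cerebellum, top, and developing cerebellum, bottom; filled points have an adjusted p below 0.05 over 136806 probe sets. All 35 probe sets of Notch2 lie above 0 against adult and the 3 of Hes5 are all filled and below 0 against developing cerebellum, while 1 of these 3 stands apart against adult.

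The genes whose profile over the 24 arrays was most like that of a member were taken by the smallest mean absolute difference of centred log2 levels among the 10963 tested genes. For Jag1 these were Spidr (0.22) and Eya4 (0.24), for Notch1 Npas3 (0.17) and Fam124a (0.18), and for Notch2 Crtap (0.15) and Arhgap42 (0.16). For Rbpj they were Macroh2a1 (0.09) and Cct2 (0.10), and for Hes5 Dzip1 (0.16) and Faap100 (0.17). For Hey1 they were Kank1 (0.16) and Cntln (0.18), for Hes6 Eml4 (0.19) and Memo1 (0.19), and for Dll3 Epha2 (0.30) and Pdia5 (0.30). For Dll1 they were Ephb3 (0.17) and Cdh11 (0.19), and for Hes1 Pbx4 (0.17) and Creb3l2 (0.17). No other Notch member was among them.

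The wider pathway was taken as 65 genes in 9 lists by role, of which 61 were measured and 51 were tested. Against adult cerebellum its shares of called genes lay near those of all tested genes. In hGFAP tumours 11 were higher and 14 lower than in adult tissue, with a median difference of 0.00, where 24.2% of all genes were higher and 29.9% lower. In Oligo1 tumours 17 were higher and 18 lower, with a median of 0.03, where 35.8% of all genes were higher and 34.5% lower. The median over all tested genes was -0.02 in hGFAP and 0.04 in Oligo1 tumours. Against developing cerebellum 5 were higher and 8 lower in hGFAP tumours (median -0.03, all genes 0.06), and 9 were higher and 10 lower in Oligo1 tumours (median 0.11, all genes 0.12), where the shares of all genes were 15% higher and 13.4% lower in hGFAP and 27.5% higher and 19.9% lower in Oligo1 tumours. Without hGFAP tumour 5 the calls in hGFAP tumours numbered 22 against developing tissue, not 13. Calls over all 10963 tested genes rose as well, to 4470 from 3107.

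Among the other receptors Notch3, a receptor of vascular mural cells, was tested and Notch4 was too dim. Notch3 passed the brightness limit only through the 3 developing arrays, where it is high, so its values against them are a description. Notch3 was lower than in developing cerebellum, with log2 differences of -1.42 in hGFAP tumours (limma adjusted p = 1.16e-07) and -1.62 in Oligo1 tumours (adjusted p = 1.1e-08). Against adult it was lower in Oligo1 tumours (-0.35, adjusted p = 0.0128) and not called in hGFAP tumours (-0.15). Of 5 other ligands tested, Dll4, a ligand known from endothelial tip cells, was higher than in adult tissue by 0.58 in hGFAP tumours (adjusted p = 0.0386) and by 1.50 in Oligo1 tumours (adjusted p = 6.34e-06). Jag2 was lower than in adult in both (-0.77 in hGFAP, -0.88 in Oligo1), and lower than in developing tissue (-1.88 in hGFAP, -1.99 in Oligo1). Dner, a neuronal Notch ligand of Purkinje cells that acts on Bergmann glia, was lower than in adult (-0.92 in hGFAP, -1.77 in Oligo1). Cntn1, an axonal adhesion protein also reported as a ligand, was lower in Oligo1 tumours (-1.41) and not called in hGFAP tumours (-0.53). Dll4 passed the brightness limit only through Oligo1 tumours, and Mfng, below, only through tumours, so their values against normal tissue describe genes chosen where they are high. Jag2 and Dlk1 passed it through the developing arrays and 1 other array each. The imprinted, atypical ligand Dlk1 was lower than in developing cerebellum (-3.29 in hGFAP, -3.34 in Oligo1), and was called in neither against adult.

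The other 2 targets tested were lower than in adult cerebellum, unlike Hey1. Hes3 passed the brightness limit only through the 5 adult arrays, where it is high, so its values against them are a description. It was lower than in adult cerebellum, with log2 differences of -2.03 in hGFAP tumours (limma adjusted p = 1.38e-06) and -2.32 in Oligo1 tumours (adjusted p = 6.48e-08). Against developing cerebellum, where all its levels are below the limit, Hes3 was higher in hGFAP tumours (0.88, adjusted p = 0.0212) and was not called in Oligo1 tumours (0.59, adjusted p = 0.0857). Hey2 was lower than in adult as well, at -0.69 in hGFAP tumours (adjusted p = 0.0321) and -1.54 in Oligo1 tumours (adjusted p = 2.68e-05), and it was also below developing cerebellum (-0.96 in hGFAP, -1.81 in Oligo1). The markers of mature granule neurons and Purkinje cells moved with these falls: 8 of 8 granule neuron markers were lower than in adult in each group, as were 6 of 7 Purkinje markers in hGFAP and 7 of 7 in Oligo1 tumours. Their part in the result was not tested.

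Among the glycosylation enzymes, which tune which ligand a receptor answers to, the fringe genes Lfng and Mfng were higher and Rfng was lower than in adult cerebellum in both groups. Mfng was higher by 1.09 in hGFAP tumours (limma adjusted p = 0.00113) and by 2.01 in Oligo1 tumours (adjusted p = 7.33e-07). Lfng was higher by 0.90 in hGFAP tumours and by 1.00 in Oligo1 tumours. Poglut1, which adds O-glucose to the receptor, was higher by 0.56 in hGFAP tumours and by 1.00 in Oligo1 tumours. Rfng differed by -0.78 in hGFAP tumours and by -1.11 in Oligo1 tumours. Of 7 tested receptor cleavage genes the γ-secretase subunit Ncstn was higher (0.60 in hGFAP, 0.80 in Oligo1) and the subunit Aph1b was lower (-1.35 in hGFAP, -1.83 in Oligo1). The metalloprotease Adam17 was higher in Oligo1 tumours by 0.93 (adjusted p = 0.00221) and was at 0.52 in hGFAP tumours (adjusted p = 0.0821).

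Of 10 tested genes for ubiquitin ligases and endocytosis 5 were lower than in adult cerebellum in each group, and 1 was higher in hGFAP and 2 in Oligo1 tumours, where 29.9% of all genes were lower in hGFAP and 34.5% in Oligo1 tumours. Neurl1a, a Neuralized-type ligase, was lower (-1.30 in hGFAP, -1.61 in Oligo1). Fbxw7, which marks the Notch intracellular part for breakdown, was lower (-1.09 in hGFAP, -1.15 in Oligo1). Numb, an endocytic antagonist of Notch, was lower (-0.61 in hGFAP, -0.60 in Oligo1). Among 7 coactivators the acetyltransferase Kat2b was lower than in adult (-0.78 in hGFAP, -1.02 in Oligo1) and higher than in developing cerebellum (0.77 in hGFAP, 0.53 in Oligo1). Among 11 corepressors Tle1, of the Groucho family that Hes proteins recruit, was higher than in adult by 1.40 in hGFAP tumours and by 1.82 in Oligo1 tumours, and the histone deacetylase Hdac2 by 1.08 in hGFAP and 1.48 in Oligo1 tumours. Tle2 was lower (-0.96 in hGFAP, -1.30 in Oligo1).

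Of the 3 proneural and neuronal factors tested, a class that Hes proteins are known to repress, Atoh1 and Insm1 were far above adult cerebellum. Atoh1, the factor that specifies granule precursors, was higher by 5.83 in hGFAP tumours (limma adjusted p = 4.08e-07) and by 6.65 in Oligo1 tumours (adjusted p = 2.12e-08). Insm1, a zinc finger factor of newborn neurons, was higher by 5.77 in hGFAP tumours and by 6.27 in Oligo1 tumours. Atoh1 and Insm1 passed the brightness limit only through tumour and developing arrays, so their values against adult describe genes chosen where they are high. Neurod1, of differentiating granule neurons, was lower in Oligo1 tumours (-0.98, adjusted p = 0.00772) and not called in hGFAP tumours (-0.34).

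**Figure D4:**
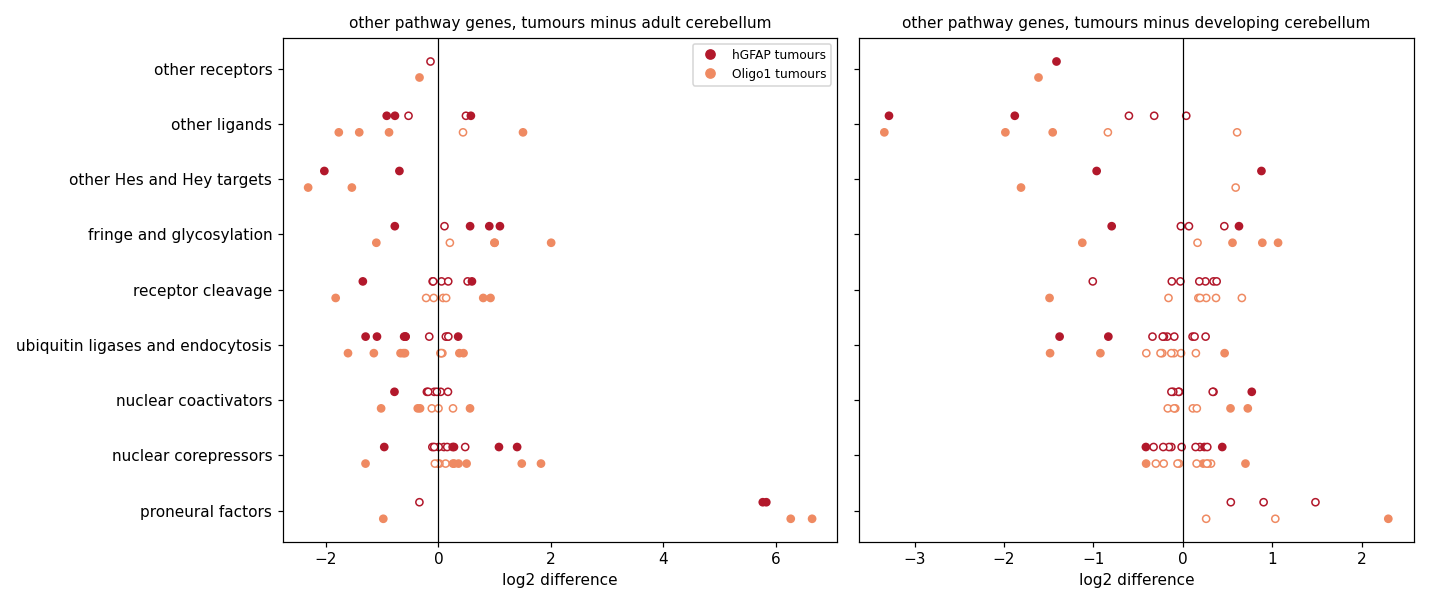
Log2 difference (horizontal axis) of the 51 other tested Notch pathway genes, by role, in hGFAP and Oligo1 tumours against adult cerebellum, left, and developing cerebellum, right; filled points have an adjusted p below 0.05. Against adult, calls lie on both sides of 0 in most roles, and the points farthest right are Atoh1 and Insm1. Against developing cerebellum some roles hold few calls, all of 1 sign. Lower calls alone occur for the 1 other receptor, other ligands (2 of 5 in hGFAP, 3 in Oligo1) and receptor cleavage (0 of 7 in hGFAP, 1 in Oligo1). Higher calls alone occur for coactivators (1 of 7 in hGFAP, 2 in Oligo1) and proneural factors (0 of 3 in hGFAP, 1 in Oligo1). Of all tested genes 15% were higher and 13.4% lower in hGFAP, and 27.5% higher and 19.9% lower in Oligo1 tumours.

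Cell type markers moved with the comparisons in which the members did. Against adult cerebellum all 7 proliferation markers and 5 of 9 granule precursor markers were higher in each tumour group, and microglia markers were higher in 6 of 6 tested cases in hGFAP and 5 of 6 in Oligo1 tumours. In Oligo1 tumours 1 of 9 granule precursor markers was lower. All 7 proliferation markers and Atoh1, Barhl1, Dcx and Nhlh1 of the granule precursor markers passed the brightness limit only through tumour or developing arrays. Their calls against adult therefore describe genes chosen where they are high. Of 11 Bergmann glia and astrocyte markers 4 were lower and 1 higher in hGFAP, and 8 lower and 1 higher in Oligo1 tumours. Of all tested genes 24.2% were higher and 29.9% lower in hGFAP, and 35.8% higher and 34.5% lower in Oligo1 tumours. The mean level of the proliferation list ranged from 6.49 to 10.92 in hGFAP tumours and from 10.50 to 11.13 in Oligo1 tumours, from 8.62 to 10.05 in developing and from 5.21 to 5.63 in adult cerebellum. For the granule precursor list it was 9.47 to 11.34 in hGFAP tumours, 10.57 to 11.20 in Oligo1 tumours, 9.86 to 10.66 in developing and 8.64 to 8.93 in adult cerebellum. Against developing cerebellum 7 of 9 endothelial and pericyte markers were lower in hGFAP and 6 of 9 in Oligo1 tumours, the comparison in which Notch1, Notch3, Dll1 and Hes5 were lower, and where 13.4% of all genes were lower in hGFAP and 19.9% in Oligo1 tumours. In that comparison 6 of 6 microglia markers were higher in hGFAP and 5 of 6 in Oligo1 tumours, 5 of 9 oligodendrocyte lineage markers in hGFAP and 2 of 9 in Oligo1 tumours, and 4 of 8 mature granule neuron markers in hGFAP and 1 of 8 in Oligo1 tumours. Of all tested genes 15% were higher there in hGFAP and 27.5% in Oligo1 tumours. The mean level of the endothelial list was 7.31 to 7.94 in hGFAP tumours, 7.52 to 8.25 in Oligo1 tumours, 8.52 to 9.06 in developing and 7.78 to 8.34 in adult cerebellum. Of this list Kdr passed the brightness limit only through the 3 developing arrays, where it is high. Tek passed through them and 1 adult array, and Pecam1 through them and 2 Oligo1 tumours. Against adult 3 of 9 markers of this list were lower in each tumour group, and 1 was higher in Oligo1 tumours. Notch1, Dll1 and Hes5 were not called against adult. Markers of neural progenitors were lower than in developing tissue in 1 of 5 cases in hGFAP and 2 of 5 in Oligo1 tumours, and those of Bergmann glia and astrocytes were higher in 4 of 11 and lower in 1 of 11 cases in hGFAP, and 3 of 11 and 3 of 11 in Oligo1 tumours. The part of these cells in the Notch results was not tested.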

How the data were processed

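Per the submitters' processing notes the authors used R 2.15 with oligo 1.14 and RMA (robust multi-array averaging), and they deposited log2 intensities for 241576 probe sets on 24 arrays. This method corrects background, quantile normalizes and summarises probes, so values show relative changes, and depth is not a property of arrays: their number limits the precision. Masking, annotation and build are not given in the sources. Every column matched a sample, leaving 0 unmapped.

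Platform symbols (213361 probe sets with 1 symbol, 5107 with several, 23108 with none) were brought up to date through the RefSeq synonyms of GRCm38.p6. Median polish of the probe sets gave 20848 genes (2636 from a single one). Testing covered the 10963 genes with at least 3 arrays above 7.61, the median of all values. Samples were grouped by title and genotype, and 4 groups over all 24 arrays entered 1 linear model (lmFit, contrasts and eBayes of limma 3.58.1, R 4.3.3, and version 1.17.8 of data.table), with Benjamini-Hochberg adjustment at 0.05. Probe sets were fitted the same way (136806 kept). The fits were tested on simulated data. The closest 2 arrays correlated at 0.990, so none was a copy.

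Members and lists were chosen with earlier results of these data known. By rule all members are named, and at most 4 genes of each wider list, the largest of those called against adult cerebellum. Dlk1 and Numb are named outside that rule, after their values were seen. Alternatives covered the summary, the filter, normalization, variance model, strain, arrays left out, name style and replicate number. Figures used matplotlib 3.10.9 under Python 3.11.15.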

Additional observations from a re-analysis of the deposited data

Results flagged for a closer look

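Within the hGFAP tumours 3 levels stood far from the other 7 of their gene. Notch2 was at 7.73 in tumour 5 (next lowest 8.62) and Rbpj at 8.13 in tumour 5 (next lowest 9.11). Dll3 was at 8.82 in tumour 7 (next highest 7.42). These are 3 of 30 sets of 5 or 8 arrays examined, and chance alone marks about 1 in 20. Tumour 5 is also the array with the lowest proliferation markers and the highest mature granule neuron markers of its group, and the part of either in its Notch levels was not tested.

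Jag1 and Hes6 were flagged because their differences from adult cerebellum were called unequal between the tumour groups. The adult arrays cancel, so this is the comparison of hGFAP with Oligo1 tumours given above and no separate result. Jag1 differed by -0.84 (limma adjusted p = 0.0252) and Hes6 by -0.74 (adjusted p = 0.0202). Neither was called in a fit of only these 2 groups, with replicate number as a block, or in tumours 5 to 8 alone. The highest hGFAP tumour lay below the Oligo1 median for both, at 8.88 against 8.90 for Jag1 and at 8.53 against 8.62 for Hes6.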

How the results depend on the processing

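Dim levels, few developing arrays and 1 tumour near adult tissue limit the Notch results. Of 1272 alternative values of single genes, no call reversed, 39 calls were lost and 47 gained, and 38 uncalled values changed sign. Notch1 and Hes5 against developing cerebellum, and Jag1 and Dll3 against adult, kept their calls in both tumour groups under every alternative in which they were tested. Of these, Hes5, Jag1 and Dll3 passed the brightness limit only through groups where they are high. The alternatives also reuse the same arrays, so a kept call is not independent support. Centring arrays moved the median of all genes to -0.17 for developing against adult cerebellum (otherwise -0.05) and to -0.11 for hGFAP tumours against adult (otherwise -0.02). The cause of the changes below was not tested, except that the stricter limit of 9.34 and the smaller sets of arrays leave fewer genes or samples.

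Among the Notch members, the count called in hGFAP tumours against adult cerebellum (6) was 3 with the stricter limit and 2 with tumours 5 to 8 only. In Oligo1 tumours against adult (6) it was 3 with the stricter limit, as it was for developing against adult (7). In hGFAP tumours against developing cerebellum (4) it was 2 in a fit of only these groups and 2 with strain as a covariate. In Oligo1 tumours against developing cerebellum (3) it was 7 with array weights, 5 with bright probe sets, 5 with no limit and 6 with tumours 1 to 4 only. Between hGFAP and Oligo1 tumours (2) it was 4 with array weights, 1 with the stricter limit, and 0 in a fit of only these groups, with tumours 5 to 8 only and with the replicate block (Jag1 adjusted p = 0.0536, Hes6 adjusted p = 0.0556). The replicate numbers did not pair the tumours: same-numbered tumours correlated at -0.50 to 0.59, 4 of 8 above 0.1, and 1 of 8 hGFAP tumours correlated best with its own number.

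Among the other pathway genes, the count in hGFAP tumours against adult (25) was 39 with array weights and 14 with the stricter limit. In Oligo1 tumours against adult (35) it was 19, and in developing against adult cerebellum (28) 16, with the stricter limit. In hGFAP tumours against developing cerebellum (13) it was 34 with array weights, 8 without E15, 5 with strain as a covariate, 5 with the stricter limit, 23 with tumours 1 to 4, 7 with tumours 5 to 8 and 24 without hGFAP tumour 5 and Oligo1 tumour 6. In Oligo1 tumours against developing cerebellum (19) it was 38 with array weights, 7 with strain as a covariate, 9 with the stricter limit and 29 with tumours 1 to 4. Between the tumour groups (9) it was 5 with name style as a block, 2 in a fit of only these groups, 1 with the replicate block, 4 with the stricter limit, 5 with tumours 1 to 4 and 0 with tumours 5 to 8.

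Leaving out each array in turn gave 5 to 6 members and 20 to 31 other genes for hGFAP tumours against adult, 6 to 7 and 32 to 35 for Oligo1 tumours against adult, 3 to 5 and 8 to 22 for hGFAP tumours against developing, 2 to 4 and 14 to 22 for Oligo1 tumours against developing, 1 to 3 and 3 to 11 between the tumour groups, and 7 in each case and 22 to 27 for developing against adult. Between the tumour groups the member count was 1 without Oligo1 tumour 1, Oligo1 tumour 3 or hGFAP tumour 6. The count of other genes there was 4 without Oligo1 tumour 1 or hGFAP tumour 6, 5 without Oligo1 tumour 3 or hGFAP tumour 5, and 3 without hGFAP tumour 3. It was 22 without hGFAP tumour 5 and 8 without the E15 array for hGFAP tumours against developing cerebellum. Without hGFAP tumour 5 the calls over all 10963 genes also rose in this comparison, to 4470 from 3107. Between the tumour groups they fell to 1151 from 2074.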
